A study of Mus musculus with 12 samples.

Results

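Early and late dosing with methazolamide (MTZ) were compared in single-cell RNA sequencing of the mouse aorta, with 1 gene expression library for each schedule. Both groups were male ApoE−/− C57BL/6J mice that were 8 weeks old at the start and were fed for 24 weeks on a diet with 1% cholesterol and 10% fat. MTZ was given by gavage at 25 mg/kg every other day, throughout the 24 weeks in the group labelled MTZ-preventive treated AS and during the last 12 weeks in the group labelled MTZ-treated AS. These are called the preventive and the late library here, and each was made from 6 pooled aortas. The sample labels write the drug as methoxazolamide. A library of untreated mice on the same diet (AS) and the library labelled Healthy, whose labels give ApoE−/− mice without the diet, serve as reference values. A cell was a barcode with more than 200 genes, more than 1000 UMIs (unique molecular identifiers, which count captured RNA molecules) and under 10% mitochondrial UMIs. This kept 16316 cells of the preventive library and 7215 of the late library, 23531 of the 38072 cells that the same limits kept in all 4 libraries. UMIs were summed over all cells and over 4 gates, which are groups of cells chosen by 2 genes each. The endothelial gate took at least 2 UMIs of Pecam1 and Cdh5 together, the fibroblast gate at least 3 of Dcn and Col1a1, the smooth muscle gate at least 2 of Myh11 and Cnn1, and the B cell gate at least 2 of Cd79a and Ms4a1. A cell that met more than 1 gate was left out of all of them. The 8 gate genes chose the cells, so their levels are no result.

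Methazolamide inhibits carbonic anhydrases, enzymes that interconvert carbon dioxide and bicarbonate, and is used against glaucoma. The wall of the aorta is lined by endothelium, which controls the passage of lipids and leukocytes. Smooth muscle cells form its contractile middle layer, and fibroblasts make the collagen of the outer layer, the adventitia, which borders on fat and can hold B cells. In atherosclerosis, which mice without apolipoprotein E develop on a fat-rich diet, lipid and macrophages collect in the inner wall, and the wall cells change their matrix and chemokine genes.

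The preventive library held 43389268 UMIs in its cells and the late library 16740509, with medians of 1770 and 1569 UMIs per cell. The cells were 68.1% and 34.5% of the deposited barcodes. Mitochondrial UMIs made up 3.24% and 1.77%. The pair of libraries shared 184 barcode sequences among their cells. Apoe, the gene deleted in these mice, was at 8.46 CPM (UMIs per 1e6 UMIs of the same cells) in the preventive library, 12.6 CPM in the late library and 11.4 CPM in the AS library. The library labelled Healthy had 677 CPM of Apoe, from 23687 UMIs, which goes against its labelled genotype. Values from it are therefore shown only as those of the library labelled Healthy. Because each schedule has 1 library, no difference between schedules has a replicate check and none was tested. The 95% intervals given are exact ones and cover counting error only. A gene was compared where it had at least 50 CPM in either library and at least 20 UMIs in both together, and it is called higher or lower where the levels differed by at least 2-fold.

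The preventive library had more B cells and fewer smooth muscle and endothelial cells for its size than the late library. The B cell gate held 1318 cells, 8.08% of the preventive library, and 84 cells, 1.16% of the late library. That is 6.94 times the share (95% interval 5.56 to 8.76). The share was 0.772% in the AS library, only 17 of its 2201 cells, and 28.9% in the library labelled Healthy. The smooth muscle gate held 1368 cells (8.38%) and 1070 cells (14.8%), a ratio of 0.565 (0.522 to 0.613). In the endothelial gate were 1310 cells (8.03%) and 872 cells (12.1%), a ratio of 0.664 (0.609 to 0.725). The endothelial difference depended on the cell filter. With looser limits of 500 UMIs and 20% mitochondrial UMIs its log2 ratio was −0.094, against −0.59 here. The fibroblast gate was the largest in both libraries, with 5169 cells (31.7%) and 2149 cells (29.8%), a ratio of 1.06 (1.01 to 1.12). Another 15.8% of the cells of each library met more than 1 gate, and 28.0% and 26.3% met none. Many cells lay at the limit of a gate. Of the endothelial gate 475 preventive and 359 late cells had exactly 2 UMIs of its genes, and 2744 and 1359 cells of those libraries had exactly 1. In the B cell gate 303 preventive and 19 late cells had exactly 2 UMIs, and 1478 and 121 cells had 1. The endothelial, fibroblast and smooth muscle gates of the AS library held 329, 536 and 168 cells, so its values rest on few cells.

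The gates carried the marker lists of the cells they were meant to hold. Each of these lists includes the 2 genes of its gate, so the sums are partly fixed by the gates. The summed level of the endothelial marker list in the endothelial gate was 5641 CPM in the preventive and 5397 CPM in the late library, and that of the smooth muscle list in its gate 50860 and 57336 CPM. The B cell list reached 3753 and 4598 CPM in the B cell gate. Fibroblast markers summed to 23275 and 31046 CPM in the fibroblast gate, where 4 of the 10 tested were lower in the preventive library, the gate gene Col1a1 among them. Among all genes tested in that gate 2.43% were lower. Receptor libraries of the same aortas gave a separate check on the B cell gate. An assembled B cell receptor chain was found for 1057 of the 1318 preventive cells (80.2%) and for 70 of the 84 late cells (83.3%), while the other gates had such a chain in 2.27% to 2.82% of their preventive and 0.115% to 0.465% of their late cells.

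Over all cells, the few tested plasma cell markers and adipocyte markers were higher in the preventive library, and macrophage markers were lower. Of the 8 genes of the plasma cell list 3 were tested, Jchain, Irf4 and Xbp1, and all 3 were higher. Xbp1 was higher in the endothelial gate too, at a log2 ratio of 1.12. Over all cells without a UMI of Adipoq, Cidec, Plin1 or Prg4, Xbp1 was at 0.69, under 2-fold. Of the adipocyte list 8 of 9 tested genes were higher. Of 3004 genes tested, 246 (8.19%) were called, 159 higher (5.29%) and 87 lower (2.9%), with a median log2 ratio of −0.06 (preventive over late) over all tested genes. In sums over all cells, fewer cells of a type and less RNA per cell cannot be told apart. Jchain, which joins the units of secreted IgM and IgA, was at 150.5 CPM in the preventive library and 1.3 CPM in the late library, a ratio of 115 (75.6 to 183), and 1281 of its 6529 preventive UMIs lay in 1 cell. Hp (haptoglobin, which binds free hemoglobin) was at 2552 and 68.9 CPM, a ratio of 37.0 (34.9 to 39.3). Cfd (complement factor D, or adipsin, secreted by adipocytes) was at 5819 and 468 CPM, a ratio of 12.4 (12.1 to 12.7). Hp and Cfd were both high in the AS library as well, at 3012 and 11878 CPM. Cxcl13, the chemokine that attracts B cells, was at 924 and 32.6 CPM, with 553 CPM in the AS library and 2.4 CPM in the library labelled Healthy. Mrap (melanocortin receptor accessory protein), Cidec, Cyp2e1 and Pdk4 completed the 8 highest, at 10.3 to 28.2 times the late level.

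Among the genes lower in the preventive library, Spp1 (osteopontin, a matrix protein of macrophages and calcifying tissue) stood first, at 71.7 CPM against 576 CPM in the late library, a ratio of 0.125 (0.120 to 0.130). The AS library had 2928 CPM and the library labelled Healthy 7.4 CPM of Spp1. One cell held 632 of the 3111 preventive UMIs of Spp1, and 1 cell held 1505 of the 9635 late UMIs. Lyz2, the lysozyme of macrophages and neutrophils, was at 113 and 509 CPM, with 860 CPM in the AS library. Of its 8522 late UMIs 1858 lay in 1 cell. The complement subunit genes C1qa, C1qb and C1qc, made by macrophages, were at 34.7, 50.3 and 28.3 CPM in the preventive and 109.6, 146 and 105 CPM in the late library. Of the macrophage marker list 4 genes were tested, of which 3 were lower and 0 higher. Among all genes tested over all cells 2.9% were lower. The macrophage list summed to 231 CPM in the preventive library, 515 in the late library, 1124 in the AS library and 124 in the library labelled Healthy. The sums of macrophage markers thus lay in the order AS, late, preventive, Healthy. The other 3 of the 8 lowest genes were Gzma (granzyme A of cytotoxic lymphocytes), Nts (neurotensin) and Gng11 (a G protein subunit), at 0.222, 0.339 and 0.347 times the late level.

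Of the genes tested in all 4 gates, 1604 in number, 21 (1.31%) were at least 2-fold higher in the preventive library in every gate, and 0 were at least 2-fold lower in every gate. They fall into groups by their known roles. Hp and Serpina3n are acute phase genes, and Cxcl13 and Cxcl1 encode chemokines. Cfd, Retn (resistin), Cidec (a lipid droplet protein), Pnpla2 (adipose triglyceride lipase) and Cyp2e1 (a cytochrome P450) are abundant in adipocytes. Mt1 and Mt2 (metallothioneins, which bind zinc and copper), Hmox1 (heme oxygenase 1), Gclc (the catalytic subunit of glutathione synthesis) and Gpx3 (secreted glutathione peroxidase) belong to the defence against metals and oxidants. Tnfaip3 (A20, an inhibitor of NF-κB signalling) and Pim3 (a kinase) are induced by cytokines. Pdk4, Glul (glutamine synthetase), Trf (transferrin), Tuba1c (a tubulin) and Grina complete the group. The plot of the 21 genes in 4 gates shows that the size of the difference varied widely between gates for most of them.

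**Figure D1:**
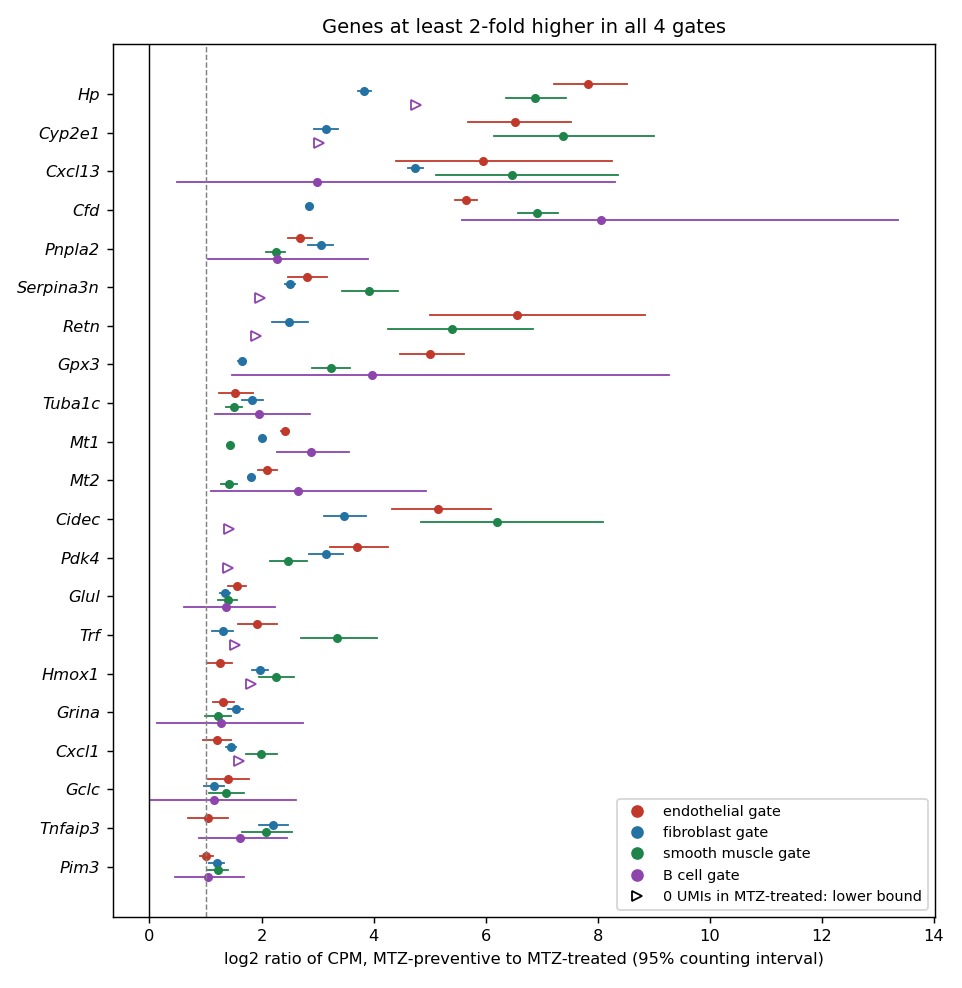
Log2 ratio of the summed CPM, preventive over late library, for the 21 genes at least 2-fold higher in all 4 gates, with 1 marker per gate and bars for the 95% counting intervals. Open triangles are lower bounds for genes with 0 UMIs in the late B cell gate, and the dashed line marks a 2-fold difference, which every gene reaches in every gate.

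Promoter sequence was at hand for 16 of the 21 genes, as RefSeq windows of 250 bases before the start of transcription on GRCm38.p6. Known motifs of stress and cytokine responses were searched on both strands. Windows of 3 genes are shown because they carry matches for the metal, AP-1 or NF-κB motifs and because their genes encode a metallothionein, a chemokine and an NF-κB inhibitor that were higher in every gate. Capitals mark the matches, of which 0 overlap another. The Mt2 window (chr8:94172368-94172617, plus strand) holds 3 metal response matches (TGCGCNC or TGCACNC) and 1 AP-1 match (TGACTCA or TGAGTCA). The Cxcl1 window (chr5:90890995-90891244, plus strand) holds 2 NF-κB matches, and the Tnfaip3 window (chr10:19015411-19015660, minus strand) holds 1 AP-1 and 1 NF-κB match.
Mt2: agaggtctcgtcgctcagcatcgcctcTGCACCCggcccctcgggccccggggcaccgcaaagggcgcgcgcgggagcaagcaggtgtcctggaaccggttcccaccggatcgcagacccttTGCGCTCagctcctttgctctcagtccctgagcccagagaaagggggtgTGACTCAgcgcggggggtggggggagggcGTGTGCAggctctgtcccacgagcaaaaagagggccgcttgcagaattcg
Cxcl1: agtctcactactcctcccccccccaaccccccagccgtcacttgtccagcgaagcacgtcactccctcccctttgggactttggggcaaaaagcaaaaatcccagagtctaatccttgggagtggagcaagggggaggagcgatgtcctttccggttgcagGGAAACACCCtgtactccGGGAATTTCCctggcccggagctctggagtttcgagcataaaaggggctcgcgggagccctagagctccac
Tnfaip3: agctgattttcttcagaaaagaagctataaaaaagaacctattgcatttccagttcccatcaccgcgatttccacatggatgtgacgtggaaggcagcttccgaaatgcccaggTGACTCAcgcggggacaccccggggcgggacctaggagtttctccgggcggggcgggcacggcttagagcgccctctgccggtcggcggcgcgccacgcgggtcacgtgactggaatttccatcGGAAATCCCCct

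NF-κB matches stood in 4 of the 16 windows (Serpina3n, Tuba1c, Cxcl1 and Tnfaip3), against 1.41% of 32851 windows of the same length. Metal response matches stood in 4 windows (Cxcl13, Mt1, Mt2 and Glul), against 21.4% of all windows, and AP-1 matches in 2 (Mt2 and Tnfaip3), against 4.46%. The interferon response motif (2.98% of all windows) was in the Glul window only. The cAMP response element (TGACGTCA, 1.55%), the heat shock motif (0.466%) and the serum response motif (0.128%) had 0 matches in the 16 windows. A match describes the letters of these windows and does not show that a factor binds there.

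Metallothionein transcripts were among the most abundant of the 21. Mt1 was at 5222 CPM in the preventive and 978 CPM in the late endothelial gate, a ratio of 5.34 (5.11 to 5.59). In fibroblasts Mt1 was at 9278 and 2311 CPM (4.01, 3.94 to 4.09), in smooth muscle at 4446 and 1649 CPM (2.70, 2.61 to 2.79) and in the B cell gate at 1135 and 154 CPM (7.37, 4.86 to 11.8). Mt2, next to it on the chromosome, had ratios of 4.30, 3.53, 2.68 and 6.32 in the same order. Every gate of the preventive library was thus above its late counterpart for both metallothioneins, and fibroblasts held the highest levels in both libraries.

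Cxcl13 UMIs lay mostly in the fibroblast gate in both libraries. Its level in the fibroblast gate was 2370 CPM in the preventive and 88.3 CPM in the late library, a ratio of 26.9 (24.6 to 29.4). At 1000 UMIs per cell, 37.3% of the preventive and 3.21% of the late fibroblast gate held a Cxcl13 UMI, against 4.48% and 1.19% of the B cell gate, whose median depths before thinning were 1675 and 1373 UMIs, against 1674 and 1584 in fibroblasts. The fibroblast gate held 80.3% of all Cxcl13 UMIs of the preventive library and 89.7% of those of the late library. Of its 32176 preventive UMIs 11071 lay in cells without a UMI of Adipoq, Cidec, Plin1 or Prg4, and of its 489 late UMIs 421. Prg4, of the mesothelial marker list, was itself higher in the preventive fibroblast gate, at a log2 ratio of 1.12. Cxcl1, which attracts neutrophils, was also highest in fibroblasts, at 678 and 247 CPM (ratio 2.74). In smooth muscle Cxcl1 was at 209.5 and 52.5 CPM (3.99), and in endothelium at 178 and 77.8 CPM (2.29). In the B cell gate Tnfaip3 was at 322 and 105 CPM, a ratio of 3.06 (1.85 to 5.50), above its preventive levels of 80.3 to 115 CPM in the other gates.

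Cfd and Hp were found in every gate of the preventive library, including B cells. Cfd was at 4956 CPM in the preventive endothelial gate, 2995 CPM in fibroblasts, 3082 CPM in smooth muscle and 1854 CPM in the B cell gate, against 98.7, 414, 25.5 and 7.0 CPM in the late library. The last of these rests on 1 UMI, so that its ratio of 265 has an interval from 47.5 to 10466. Hp was at 2216, 1598, 1402 and 564 CPM in the preventive library and at 9.78, 112, 11.97 and 0 CPM in the late library. Set against a floor of 3 UMIs, Hp in the B cell gate was at least 26.9-fold higher. After each cell was thinned to 1000 UMIs, 19.2% of the preventive B cell gate held a Cfd UMI, against 36.1% to 47.0% of the other preventive gates and 0.748% to 2.70% of the other late gates.

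Most tested adipocyte markers were higher too. The list holds Cfd itself, and also Retn, Cidec and Pnpla2 of the genes chosen as higher in all 4 gates. Its counts are therefore partly fixed by that choice, and Cfd is a large part of its preventive sums. Where Adipoq was tested, it passed the filter through the preventive library alone. Of the 13 genes of the adipocyte list, 9 were tested in the endothelial gate and all 9 were higher in the preventive library, as were 6 of 8 in fibroblasts, 7 of 8 in smooth muscle and 5 of 6 in the B cell gate. Among all tested genes 4.01%, 5.5%, 3.57% and 10.5% were higher in these gates. The list summed to 20182, 5913, 7582 and 3399 CPM in the endothelial, fibroblast, smooth muscle and B cell gates of the preventive library, to 6647, 1808, 2260 and 833 CPM in the late library and to 19941, 10782, 14603 and 3833 CPM in the AS library. The AS B cell gate held only 17 cells. Most of the endothelial sum of each of these libraries was Fabp4, which is also in the endothelial lipid handling list. The endothelial sums therefore do not give the level of adipocyte RNA alone. Adipoq (adiponectin), which defines adipocytes, was at 137, 76.5, 80.0 and 45.4 CPM in the preventive gates and at 2.8, 14.8, 2.3 and 0 CPM in the late gates, and Plin1 and Cidec also had 0 UMIs in the late B cell gate. The level of Adipoq relative to Cfd lay between 0.0245 and 0.0276 over the preventive gates, that of Cyp2e1 between 0.0923 and 0.104, that of Cidec between 0.0302 and 0.0416 and that of Retn between 0.0265 and 0.0423. For Hp the same quotient ran from 0.304 to 0.534, for Mt1 from 0.612 to 3.10 and for Cxcl13 from 0.0176 to 0.791.

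Leaving out every cell with a UMI of Adipoq, Cidec, Plin1 or Prg4 removed 36.0% of the preventive and 10.4% of the late cells. Of the other 20 shared genes 6 were then still at least 2-fold higher in all 4 gates, namely Hp, Cxcl13, Cfd, Pnpla2, Gpx3 and Tuba1c. In single gates 11 of the 20 remained so in endothelium, 18 in fibroblasts, 16 in smooth muscle and 9 in B cells. Of the 11 not called in B cells, 7 had 0 late UMIs, so their values are lower bounds under 2-fold and do not show that the difference was lost. For Cyp2e1, Retn and Pdk4 such a bound in B cells was the only value under 2-fold. Mt1 had log2 ratios of 1.11 in endothelium, 1.51 in fibroblasts, 0.85 in smooth muscle and 1.81 in B cells without these cells, and Trf and Hmox1 were at −0.07 and −0.52 in endothelium. The part of adipocyte RNA in the remaining differences was not tested.

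Carbonic anhydrases, the targets of the drug, were mostly low. Of the 16 genes listed, Car3 and Car4 passed the filter in at least 1 gate or over all cells. Car3, an enzyme of fat and muscle, was at 338 CPM over all preventive and 112 CPM over all late cells, a ratio of 3.01 (2.87 to 3.16), with 807 CPM in the AS library and 35.7 CPM in the library labelled Healthy. It is one of the adipocyte list and was called higher in the endothelial gate (259 and 31.2 CPM, ratio 8.29) and the smooth muscle gate (178 and 9.7 CPM, ratio 18.4). In fibroblasts it was at 188 and 123 CPM (1.52). Without the cells that held adipocyte or Prg4 UMIs the log2 ratios were 1.76 in endothelium, 2.01 in smooth muscle and 1.47 in fibroblasts. Car3 was also called higher in the B cell gate, at a log2 ratio of at least 3.32, and at least 0.34 without those cells. Of its 572 UMIs in the preventive B cell gate 433 lay in 1 cell. Car4, bound to the surface of capillary endothelium, was at 217 CPM in the preventive and 79.2 CPM in the late endothelial gate, a ratio of 2.74 (2.32 to 3.25). After thinning, 14.1% of the preventive and 5.73% of the late endothelial cells had a Car4 UMI, against 0.455% and 0% in the B cell gate. The AS library had 591 CPM and the library labelled Healthy 164 CPM, so the late library was the lowest of the 4 for Car4. The cytosolic enzyme Car2 was at 4.6 and 2.4 CPM over all cells and the mitochondrial Car5b at 13.5 and 7.5 CPM, both under the level at which genes were compared.

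In the endothelial gate, genes that take up and store fatty acids were higher in the preventive library. Of 3170 genes tested 167 (5.27%) were called, 127 higher (4.01%) and 40 lower (1.26%), with a median log2 ratio of 0.01. Of the 10 tested genes for endothelial lipid handling 7 were higher and 0 lower, with a median log2 ratio of 1.42. Lpl (lipoprotein lipase, which frees fatty acids from lipoproteins) was at 366 CPM in the preventive and 71.2 CPM in the late library, a ratio of 5.14 (4.35 to 6.12). Gpihbp1, which carries Lpl to the capillary surface, was at 1057 and 328 CPM (3.22, 2.98 to 3.50). Cd36, the fatty acid receptor, was at 1030.3 and 333 CPM (3.09, 2.85 to 3.35). Pparg, the transcription factor that drives these genes in fat, was at 112 and 30.3 CPM (3.69, 2.84 to 4.87). Scarb1 (the receptor for high-density lipoprotein), Acsl1 (which activates fatty acids) and Fabp4 (which carries them inside the cell) were at 2.33, 5.90 and 2.15 times the late level. Fabp5 had a ratio of 1.52. Meox2 and Tcf15, transcription factors of fatty acid uptake in endothelium, had ratios of 1.07 (0.899 to 1.27) and 0.861, the former with an interval that includes 1.

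The late endothelial gate was the lowest of the 4 libraries for the 7 genes called and for Fabp5. Lpl was at 831 CPM in the AS library and 235 CPM in the library labelled Healthy, Gpihbp1 at 1380 and 855 CPM, and Cd36 at 1530 and 705 CPM. Fabp4 was at 13729 CPM in the preventive, 6379 CPM in the late and 12443 CPM in the AS library, with 11393 CPM in the library labelled Healthy. After thinning, a Cd36 UMI was found in 41.7% of the preventive and 20.4% of the late endothelial cells, and a Gpihbp1 UMI in 36.6% and 17.7%. Without the cells that held adipocyte or Prg4 UMIs the median log2 ratio of the list was 1.21, with Lpl at 2.10, Pparg at 2.06, Gpihbp1 at 1.84 and Cd36 at 1.71, and Acsl1 was under 2-fold at 0.97. Fabp4 and Acsl1 are in the adipocyte list as well. The lipid handling list was also higher in other gates, with 4 of 6 tested genes called higher in fibroblasts and 2 of 7 in smooth muscle. Among all genes tested there 5.5% and 3.57% were higher. The medians of the list were 1.26 and 0.69, and 0.69 and 0.50 without the cells that held adipocyte or Prg4 UMIs.

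**Figure D2:**
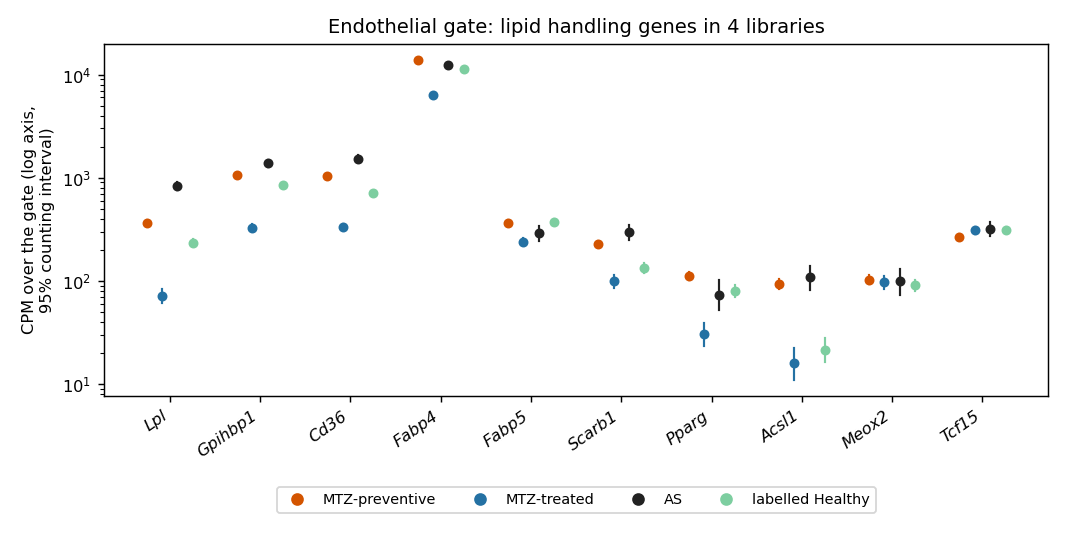
Summed CPM in the endothelial gate (log axis) of 10 lipid handling genes in the 4 libraries, 1 point per library with its 95% counting interval and the late library under its label MTZ-treated. For Lpl, Gpihbp1, Cd36, Fabp4, Fabp5, Scarb1, Pparg and Acsl1 the late library is the lowest of the 4, while Meox2 and Tcf15 differ little between the preventive and late libraries.

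Markers of capillaries were higher in the preventive endothelial gate, with 5 of 10 called and a median log2 ratio of 0.94. These were Rgcc (696 and 332 CPM, ratio 2.10), Car4, Gpihbp1, Cd36 and the glycerol channel Aqp7 (66.4 and 33.1 CPM, 2.01). Of 9 arterial markers 0 were higher and 1 was lower, Bmx (a kinase) at 28.4 and 59.1 CPM, with a median log2 ratio of −0.44. Among all genes tested in endothelium 4.01% were higher and 1.26% lower. The arterial connexins Gja4 and Gja5 were at 0.582 and 0.532 times the late level, and the arterial transcription factor Sox17 had a ratio of 1.09. None of the 13 tested genes for adhesion and vascular tone was called, with a median log2 ratio of 0.17. Among these Icam1, to which leukocytes adhere, was at 388 and 327 CPM (1.19), Nos3 (endothelial nitric oxide synthase) had a ratio of 1.30 and Edn1 (endothelin 1) was at 199 and 299 CPM (0.666). Rgcc and Bmx were under 2-fold without the cells that held adipocyte or Prg4 UMIs, at log2 ratios of 0.98 and −0.81. Different mixtures of capillary and arterial cells in the gate and different levels per cell cannot be told apart in these sums. Capillary markers were also higher in other gates, with 3 of 5 tested called in fibroblasts and 1 of 5 in smooth muscle. Their median log2 ratios there were 1.02 and 0.54, and 5.5% and 3.57% of all genes tested were higher.

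The other endothelial genes named by size of change were Fkbp5 (a glucocorticoid-induced chaperone), at 125.5 and 28.4 CPM (ratio 4.42), Angptl4 (an inhibitor of Lpl) at 133 and 36.8 CPM (3.62), Timp4 at 380.3 and 109.9 CPM (3.46), Xdh (xanthine dehydrogenase) at 149.8 and 43.3 CPM (3.46) and Tmem252 at 239.6 and 71.7 CPM (3.34). At the low end stood Sfrp1, a secreted inhibitor of Wnt signalling, at 54.5 CPM in the preventive and 337 CPM in the late library, a ratio of 0.162 (0.138 to 0.189). The AS library had 147 CPM of Sfrp1 and the library labelled Healthy 164 CPM, so that the preventive library was the lowest and the late library the highest. Isg15, induced by interferon, was at 227 and 529 CPM (0.429). Gdf15, a stress-induced cytokine, was at 130 and 285 CPM (0.454). Avpi1, Mtln, Mgst3, Marcksl1 and Asap2 were at 0.415 to 0.462 times the late level. Without the cells that held adipocyte or Prg4 UMIs Angptl4, Marcksl1 and Asap2 were under 2-fold, at log2 ratios of 0.89, −0.97 and −0.87.

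Fibroblasts of the preventive library held less RNA of most collagens and some matrix genes and more chemokine and acute phase RNA than those of the late library. Of 2800 genes tested 222 (7.93%) were called, 154 higher (5.5%) and 68 lower (2.43%), with a median log2 ratio of −0.05. Of the 15 tested collagen genes other than the gate gene Col1a1, 0 were higher and 6 were lower, with a median log2 ratio of −0.89. Col3a1 was at 2250 CPM in the preventive and 5976 CPM in the late library, a ratio of 0.377 (0.371 to 0.382). Col1a2, which forms type I collagen with Col1a1, was at 1350 and 3549 CPM (0.380, 0.373 to 0.388). Col5a1, Col14a1, Col15a1 and Col16a1, which regulate or attach fibrils, were at 0.455, 0.424, 0.407 and 0.465 times the late level. The basement membrane collagens Col4a1 and Col4a2 had ratios of 1.55 and 1.49. Of 19 tested elastic fibre and matrix genes other than the gate gene Dcn, 3 were lower and 1 higher, with a median log2 ratio of −0.55. Sparc, which binds collagen, was at 3246 and 8032 CPM (0.404), and Fn1 (fibronectin) at 1441 and 3076 CPM (0.468). Postn (periostin) and Cthrc1, both made by matrix-forming fibroblasts, were at 0.470 and 0.441 times the late level. Lox, which cross-links collagen and elastin, was higher, at 136 and 48.2 CPM (2.82). Col14a1 and Fn1 were under 2-fold without the cells that held adipocyte or Prg4 UMIs, at log2 ratios of −0.91 and −0.92. In the smooth muscle gate 0 of the 10 tested collagen genes were called, with a median log2 ratio of 0.08.

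For fibrillar collagen and Sparc the preventive fibroblast gate was the lowest of the 4 libraries, followed by AS, and the late gate lay between AS and the library labelled Healthy. Col3a1 was at 3135 CPM in the AS library and 9009 CPM in the library labelled Healthy, Col1a2 at 1878 and 6531 CPM, and Sparc at 3661 and 14424 CPM. Sfrp4, a Wnt inhibitor, showed another order, with 1874 CPM in the preventive, 5563 CPM in the late, 1791 CPM in the AS library and 1157 CPM in the library labelled Healthy. The ratio of Sfrp4 was 0.337 (0.331 to 0.343), and 34.0% of the preventive and 61.6% of the late fibroblasts had a UMI of it after thinning. Its relative Sfrp2 was at 330.3 and 875 CPM (0.377), with a log2 ratio of −0.97 without the cells that held adipocyte or Prg4 UMIs.

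Genes of cartilage and calcification were lower in preventive fibroblasts. Of 6 tested 4 were lower and 0 higher, with a median log2 ratio of −2.19. Among all genes tested in fibroblasts 2.43% were lower. Spp1 was at 105.5 CPM in the preventive and 1297 CPM in the late library, a ratio of 0.0813 (0.0768 to 0.0861), with 5674 CPM in the AS library and 9.6 CPM in the library labelled Healthy. Of the 7188 late UMIs of Spp1 1505 lay in 1 cell, and 2.17% of the preventive and 5.07% of the late fibroblasts had a UMI after thinning. Macrophage RNA was also lower in this gate, with C1qa at 12.4 and 55.9 CPM and C1qb at 19.2 and 68.8 CPM, and its part in the Spp1 difference was not tested. Ecrg4 was at 27.4 and 189 CPM (0.145, 0.128 to 0.163), Cytl1, a secreted protein of cartilage, at 71.2 and 214 CPM (0.332) and Col2a1, the collagen of cartilage, at 3.4 and 52.7 CPM (0.0643). Sox9, the transcription factor of cartilage, and Mgp, an inhibitor of calcification, had ratios of 0.960 and 0.987. Angptl1, Pthlh (a parathyroid hormone relative) and Aspn (asporin) were at 0.206, 0.313 and 0.334 times the late level.

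**Figure D3:**
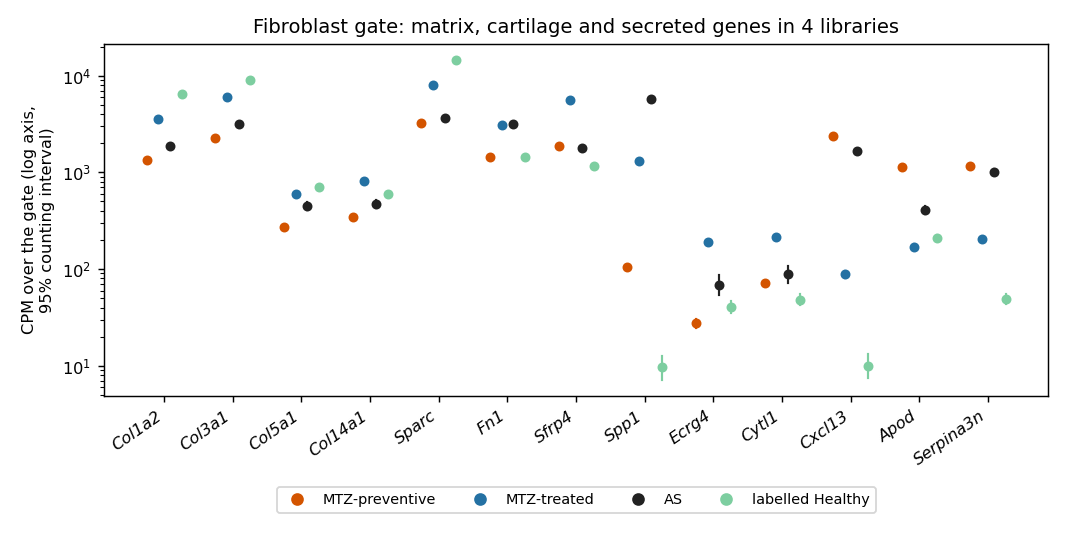
Summed CPM in the fibroblast gate (log axis) of 13 matrix, cartilage, chemokine and acute phase genes in the 4 libraries, 1 point per library with its 95% counting interval. Col1a2, Col3a1 and Sparc points of the preventive and AS libraries lie below those of the late library, Spp1 is highest in the AS library, and Cxcl13, Apod and Serpina3n are higher in the preventive than in the late library.

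Of 12 tested chemokine genes 6 were higher in preventive fibroblasts and 0 lower, with a median log2 ratio of 1.01. Beside Cxcl13 and Cxcl1 these were Cxcl14 (222.5 and 74.9 CPM, ratio 2.97), Cxcl12, which holds lymphocytes and progenitors in tissue (607 and 268 CPM, 2.27), Ccl11, which attracts eosinophils (203 and 99.6 CPM, 2.04), and Ccl5 (192 and 84.3 CPM, 2.28). For Ccl5 1229 of 2611 preventive UMIs lay in 1 cell, and a mean over cells gave a log2 ratio of −0.39. Ccl2 and Cxcl10 had ratios of 1.94 and 1.95, Ccl8 and Ccl19 of 0.533 and 0.688. Among 6 tested acute phase genes 5 were higher, with a median log2 ratio of 2.43. For both lists, 5.5% of all genes tested in fibroblasts were higher in comparison. Serpina3n, a protease inhibitor, was at 1168 and 205 CPM (5.71, 5.38 to 6.07). Saa3 (serum amyloid A3) was at 122 and 23.8 CPM (5.11) and Lcn2 (lipocalin 2, which binds iron carriers of bacteria) at 238 and 75.8 CPM (3.15), and both were higher still in the AS library, at 558 and 842 CPM. Apod (apolipoprotein D) was at 1144 and 168 CPM (6.79, 6.36 to 7.26), and 31.7% and 9.87% of the cells had a UMI of it after thinning. Igfbp3, Ctla2a, Ifitm1 and Adh1 were at 4.74 to 6.78 times the late level. Without the cells that held adipocyte or Prg4 UMIs the log2 ratio was 3.94 for Cxcl13, 2.67 for Apod, 2.02 for Serpina3n, 1.56 for Saa3, 0.88 for Cxcl14, 0.14 for Ccl5, −1.28 for Col3a1, −1.18 for Col1a2 and −3.45 for Spp1.

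Smooth muscle cells differed little in their contractile genes. Of 2917 genes tested 151 (5.18%) were called, 104 higher (3.57%) and 47 lower (1.61%), with a median log2 ratio of −0.00. None of the 20 contractile genes tested beside the gate genes was called, and their median log2 ratio was −0.05. Acta2 (smooth muscle actin) was at 16837 CPM in the preventive and 16723 CPM in the late library, a ratio of 1.01 (0.995 to 1.02). Tagln (transgelin) was at 17071 and 23465 CPM (0.728), Myl9 (a myosin light chain) had a ratio of 0.984 and Mylk (its kinase) of 1.01. Des (desmin) and Csrp1 were at 1.57 and 1.67 times the late level, and Mustn1 and Ppp1r14a at 0.629 and 0.561. The largest of these differences stayed under 2-fold.

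Some chemokine genes and the tested MHC class II genes were higher in preventive smooth muscle. Of 9 tested chemokine genes 4 were higher and 1 was lower, with a median log2 ratio of 0.42. Among all genes tested in smooth muscle 3.57% were higher and 1.61% lower. Ccl2, which attracts monocytes, was at 96.3 and 24.3 CPM (ratio 3.96), Cxcl1 at 3.99 times and Cxcl10 at 3.21 times the late level. Leaving out the cells that held adipocyte or Prg4 UMIs, Ccl2 and Cxcl10 were at log2 ratios of 0.46 and 0.34, under 2-fold. All 4 tested MHC class II genes were higher, with a median log2 ratio of 1.88. Among them Cd74, the class II invariant chain, was at 806 and 206 CPM (3.91) and H2-Aa at 206 and 35.2 CPM (5.85). Class II genes were also higher in fibroblasts, with 3 of 4 called and a median log2 ratio of 1.40. Among all genes tested in fibroblasts 5.5% were higher. In endothelium 0 of 4 were called, with a median of −0.14. The B cell markers summed to 71.5 and 19.3 CPM and the T cell markers to 105 and 19.7 CPM in the smooth muscle gate, and their part in the class II difference was not tested. Tuba1c was at 575 and 202 CPM (2.84), the chaperone Hspa8, the single gene called of 15 tested for heat shock, at 3410 and 1668 CPM (2.04) and Socs3, which dampens cytokine signalling, at 807 and 387 CPM (2.08). Cdo1 (cysteine dioxygenase), Impdh2 (of guanine nucleotide synthesis) and Thbs1 (thrombospondin 1) were at 4.14, 2.27 and 2.18 times the late level.

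Tnnt2, the troponin T of heart muscle, had the lowest ratio in smooth muscle, at 16.8 CPM against 177 CPM in the late library, a ratio of 0.0948 (0.0717 to 0.124). A UMI of Tnnt2 was found in 1.68% of the preventive and 6.36% of the late cells after thinning, and the AS library and the library labelled Healthy had 11.9 and 1.2 CPM. The AS smooth muscle gate held only 168 cells. Slc6a2 and Syt1, genes of nerve cells, were lower as well, at 12.3 and 111 CPM and at 16.3 and 142.5 CPM. Of their late UMIs, 281 of 287 and 362 of 369 lay in 1 cell, as did 177 of 268 for the sodium pump subunit Atp1b1. Tcap, a sarcomere protein, was at 176 and 424 CPM (0.415), and Tomm7, of the mitochondrial import pore, at 253 and 539 CPM (0.469).

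Most transcripts for subunits of the mitochondrial respiratory complexes that the nucleus encodes were slightly lower in every gate of the preventive library. Over 35 tested genes in smooth muscle the median log2 ratio was −0.67, and 3 were called lower, namely Ndufc1 (172 and 381 CPM, ratio 0.450), Cox7c (436 and 882 CPM, 0.494) and Atp5k (75.2 and 163 CPM, 0.462), of which Cox7c was at a log2 ratio of −0.99 without the cells that held adipocyte or Prg4 UMIs. The medians were −0.39 in endothelium, −0.45 in fibroblasts and −0.54 in the B cell gate. The ATP synthase subunit genes Atp5b and Atp5a1 went the other way in every gate, with ratios of 1.65 and 1.26 in smooth muscle. Of 34 genes tested in the B cell gate 2 were called higher, Atp5b and Sdhb, and 3 lower. Among all tested genes 1.61% were lower in smooth muscle, and 10.5% were higher and 6.05% lower in the B cell gate. UMIs that the mitochondrial genome encodes took a larger share in the preventive library in each gate, for example 4.17% against 2.69% in smooth muscle and 3.08% against 1.47% in endothelium.

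Part of the glucocorticoid target genes were higher in each gate. Of 13 tested, 5 were higher in endothelium, 6 in fibroblasts and 4 in smooth muscle, with median log2 ratios of 0.49, 0.97 and 0.78, and of 11 tested in B cells 2 were higher, with a median of 0.65. None was lower, and over all tested genes 4.01%, 5.5%, 3.57% and 10.5% were higher in these gates. Fkbp5 was higher in endothelium, fibroblasts and smooth muscle, at 4.42, 2.41 and 3.91 times the late level. Zbtb16, a transcription factor that glucocorticoids induce, was at 4.29, 4.36 and 2.06 times. Tsc22d3, which mediates their anti-inflammatory action, was at 252 and 114 CPM in endothelium (2.22) and 285 and 126 CPM in fibroblasts (2.27). Mt2 and Pdk4 are counted in this list too, and they are among the genes higher in all 4 gates. They were the 2 called in B cells. Without the cells that held adipocyte or Prg4 UMIs, the lower bound for Pdk4 in B cells was a log2 ratio of −0.44. Tsc22d3 and Errfi1 were below the late level in B cells, and Fkbp5 and Zbtb16 were not tested there.

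**Figure D4:**
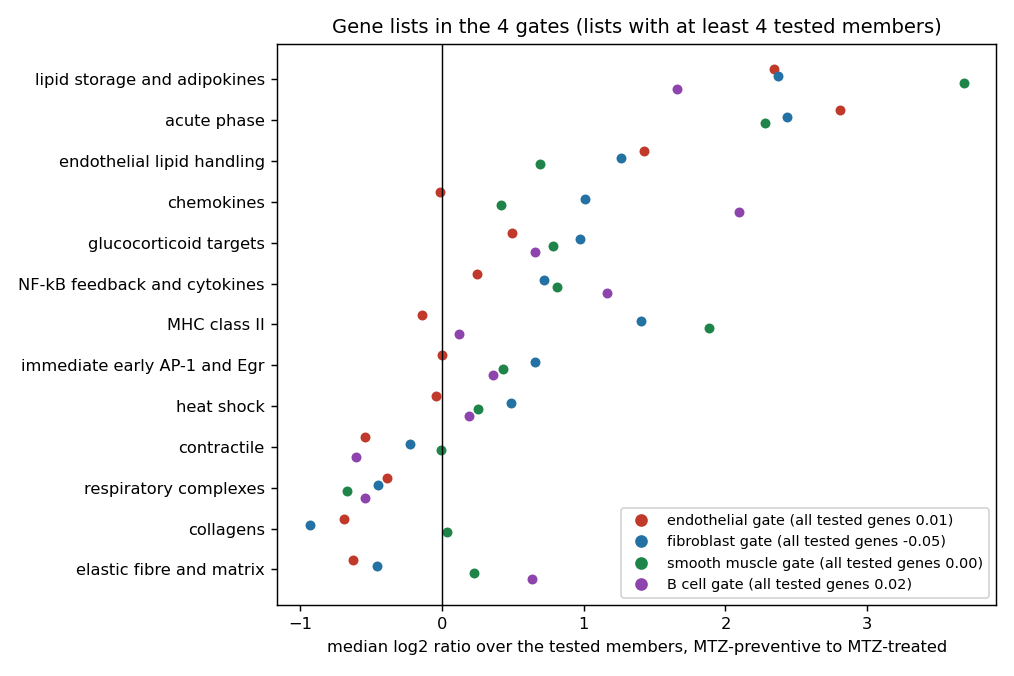
Median log2 ratio, preventive over late library, of the tested members of 13 gene lists in each gate, for lists with at least 4 tested members. The collagen, contractile and matrix lists include gate genes. Among the 13 lists shown, the largest positive medians belong to the lipid storage and acute phase lists and the lowest to the collagen list in fibroblasts. The list for cartilage and calcification, with a median of −2.19 in fibroblasts, is not shown. Without cells that held adipocyte or Prg4 UMIs, the medians were 1.33 for lipid storage in smooth muscle and 0.77 for acute phase in endothelium.

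B cells of the preventive library had higher levels of activation genes, read against only 84 cells of the late library. Of 2628 genes tested 434 (16.5%) were called, 275 higher (10.5%) and 159 lower (6.05%), with a median log2 ratio of 0.02. One UMI in the late gate equalled about 7.0 CPM, so calls at low levels rest on few UMIs. Of 17 tested genes for NF-κB feedback and cytokines 9 were higher and 0 lower, with a median log2 ratio of 1.16. Cd83, an activation marker, was at 559 CPM in the preventive and 126 CPM in the late library, a ratio of 4.43 (2.80 to 7.50), and 38.6% and 13.1% of the cells had a UMI of it after thinning. Nfkbid, an inhibitor of NF-κB that B cells induce on stimulation, was at 633 and 182 CPM (3.48, 2.37 to 5.34). Nfkbie, Nfkb1, Relb and Icam1 were at 2.24 to 2.75 times the late level, and Nfkbiz, with 3 late UMIs, at 4.22 times (1.43 to 20.6). Sod2, the mitochondrial superoxide dismutase, was at 126 and 42.0 CPM. Nfkbia was just under the limit at 2898 and 1477 CPM (1.96, 1.71 to 2.26). The subunits Rel and Nfkb2 had ratios of 0.992 and 0.833, and Traf1 one of 0.634. The same list had medians of 0.25 in endothelium, 0.72 in fibroblasts and 0.81 in smooth muscle, over 9, 11 and 7 tested genes.

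**Figure D5:**
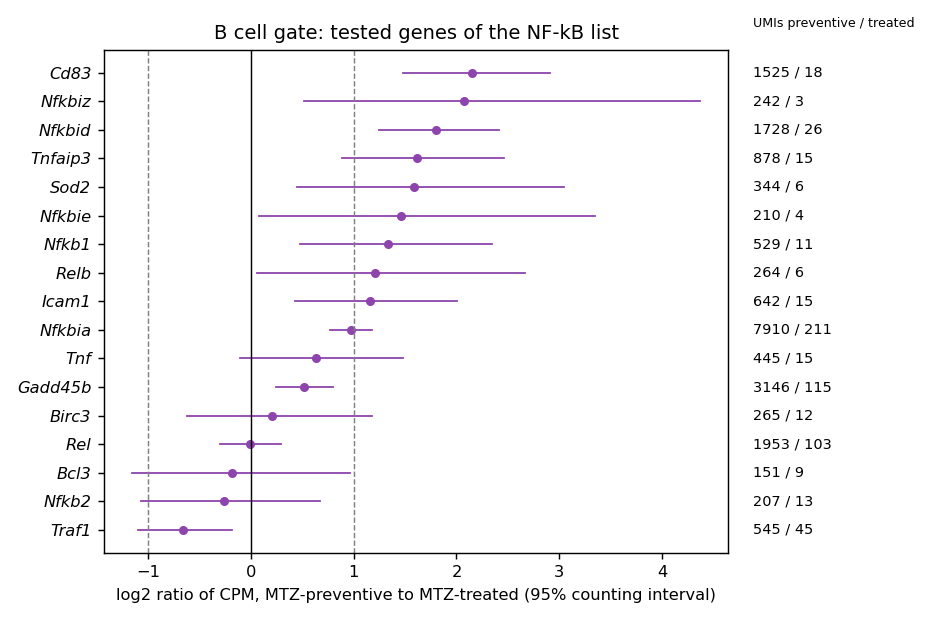
Log2 ratio in the B cell gate, preventive over late library, of the 17 tested genes for NF-κB feedback and cytokines, with 95% counting intervals and the UMI counts of both libraries. Cd83, Nfkbid and Tnfaip3 lie above 2-fold, while Rel, Nfkb2 and Traf1 lie at or below 0 and intervals are wide where the late library has few UMIs.

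Other genes of B cell activation were higher in part. Nr4a1 (Nur77), which antigen receptor signals induce within hours, was at 2387 and 1078 CPM (ratio 2.21, 1.89 to 2.62), and Nr4a1 was at 817 CPM in the AS library and 2406 CPM in the library labelled Healthy. The AS value rests on 17 cells with 31831 UMIs of all genes. Myc was at 282 and 98.0 CPM (2.88) and Cd69 at 2.22 times the late level. Of the 22 activation genes tested 6 were higher and 2 lower, with a median log2 ratio of 0.62. Cd83 and Nfkbid are among the 6 and were counted in the NF-κB list as well. Of all genes tested in the B cell gate 10.5% were higher and 6.05% lower. The 2 lower of the activation list were Tnfrsf13b (TACI, a receptor for survival factors), at 45.1 and 126 CPM (0.358), and Cd44 (0.482). Ccr7, which guides lymphocytes to lymphoid tissue, was at 673 and 315 CPM (2.14, 1.59 to 2.94) and Cxcr4, the receptor of Cxcl12, at 114 CPM in the preventive gate and 5 UMIs in the late gate (3.26, 1.38 to 10.1). The homing integrin Itgb7 was lower, at 40.3 and 98.0 CPM (0.411). None of 10 MHC class II genes was called, with Cd74 at 20693 and 18779 CPM (1.10). The activation list was not raised in B cells alone. Its medians were 0.27 in endothelium, 0.93 in fibroblasts and 0.84 in smooth muscle, over 5, 5 and 4 tested genes. Myc and Nr4a1 were the 2 of them called higher in fibroblasts, and Myc the 1 in smooth muscle. Among all genes tested in these 2 gates 5.5% and 3.57% were higher.

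Jchain was at 1515 CPM in the preventive B cell gate and had 0 UMIs in the late gate, which makes it at least 72.2-fold higher against the floor of 3 UMIs. Of its 4137 UMIs 1281 lay in 1 cell, and 1.82% of the cells had one after thinning. Ccl4, a chemokine of activated B cells, was at 113 and 21.0 CPM, a ratio of 5.39 (1.83 to 26.3) on 3 late UMIs. Grasp, Abcg1 (a cholesterol exporter), Irf2bp2, Ahcyl2 and Vasp (which promotes actin assembly) were at 4.02 to 4.54 times the late level on 4 to 6 late UMIs. Plac8 was lower, at 193 and 609 CPM (0.316, 0.252 to 0.402), with 14.8% and 33.3% of the cells holding a UMI after thinning. Cd2, an adhesion molecule, was at 75.8 and 259 CPM (0.293, 0.206 to 0.428). Phf14, Timm17b, Vdac3, Ppdpf and Tmem163 were at 0.334 to 0.373 times the late level. Cd79b, part of the B cell receptor, was at 449.8 and 812 CPM (0.554) and Mzb1, an endoplasmic reticulum protein of antibody-secreting cells, at 326 and 546 CPM (0.597). Among cells of the gate with an assembled heavy chain it was of IgM or IgD class in 587 of 614 preventive cells (95.6%, Clopper-Pearson interval 93.7% to 97.1%) and 20 of 21 late cells (95.2%, 76.2% to 99.9%). A T cell receptor chain was found for 16 preventive cells of the B cell gate (1.21%) and for 0 of the 84 late cells, which allows a share of up to 4.30%.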

How the data were processed

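Single-cell suspensions of aorta were sequenced on the 10x Genomics 5′ platform, with additional B and T cell receptor libraries. The authors aligned reads to mm10 with STAR within Cell Ranger 5.0.0, per the labels and the file headers, and deposited raw counts of UMIs per gene and barcode and lists of assembled receptor contigs. Strand settings are not given in the sources used here. Barcodes with more than 200 genes, more than 1000 UMIs and under 10% mitochondrial UMIs were kept. No doublet caller was run, and cells that met more than 1 gate were dropped (2581 preventive and 1140 late cells). Counts of the 38 symbols on more than 1 line were summed, UMIs were summed over cells and scaled to 1e6 (CPM), and the ratio of CPM was taken with exact conditional binomial 95% intervals. Shares have Clopper-Pearson intervals. These cover counting error only. Tests exclude immunoglobulin, T cell receptor, mitochondrial, Gm and Rik genes. A gene was tested at 50 CPM or more in either library with at least 20 UMIs, and called at a 2-fold difference. One UMI floor of 3 stands for a count of 0. Thinned shares draw 1000 UMIs from each cell with a fixed seed.

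Named genes were, in each set of cells, the 8 with the highest and the 8 with the lowest ratio among genes of at least 100 CPM, without gate and hemoglobin genes and, within a gate, at levels no lower than over all cells of that library. To these were added the genes past 2-fold in all 4 gates, the tested members of 30 pathway and 22 marker lists, the carbonic anhydrases and Apoe. Other genes named were chosen after their values were seen, and a few results under this rule are not reported here. Members and lists were chosen with earlier results of these data known. With 1 library per group no model was fitted and no p-value was computed. Alternatives changed the scaling (TMM of edgeR 4.0.16 in R 4.3.3), totals, cell and gene filters and gates. The calculations were tested on simulated counts. Sums and intervals were computed in Python 3.11.15 (scipy 1.17.1, numpy 2.4.6, pandas 2.3.3), and figures were drawn with matplotlib 3.10.9. The receptor files of the library labelled Healthy and of the AS library were not used here.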

Additional observations from a re-analysis of the deposited data

Results flagged for a closer look

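Some genes differed by at least 2-fold in opposite directions in different gates. With 1 library per schedule these differences between gates were not tested. Ccl2 had a log2 ratio (preventive over late) of 1.99 in smooth muscle and at least 1.54 in the B cell gate, which held 0 late UMIs of it, but −1.31 in endothelium. Without cells that held adipocyte or Prg4 UMIs the first of these was 0.46 and the bound of the second 0.75, both under 2-fold. Ccl5, the chemokine of cytotoxic lymphocytes, was at 1.19 in fibroblasts, 4.59 in B cells, where the late library had 1 UMI, and −2.22 in endothelium. Its fibroblast value was −0.39 as a mean over cells and 0.14 without cells that held adipocyte or Prg4 UMIs. Its endothelial value was 0.0642 where the gate asked for 1 more UMI. Isg15 was at 1.74 in B cells and −1.22 in endothelium, and Marcksl1 at 1.25 and −1.13. Plac8 was at 1.54 in fibroblasts and −1.66 in B cells. Slc6a2 and Syt1 were at 3.15 and 3.56 in fibroblasts and at −3.18 and −3.13 in smooth muscle, where 1 late cell held 281 of 287 UMIs of Slc6a2 and 362 of 369 UMIs of Syt1. Atp1b1 was at 1.62 in B cells and −1.52 in smooth muscle, where 177 of 268 late UMIs lay in 1 cell.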

How the results depend on the processing

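No paired analysis was possible because each schedule has 1 library, and no difference has a replicate error. Comparing every gene with at least 20 UMIs, without the limit on CPM, raised the number of genes past 2-fold to 1726 over all cells, 1054 in endothelium, 1704 in fibroblasts, 1062 in smooth muscle and 1905 in B cells. The other alternatives gave 178 to 294 over all cells (246 as reported), 131 to 217 in endothelium (167), 161 to 274 in fibroblasts (222), 112 to 199 in smooth muscle (151) and 381 to 545 in B cells (434), except for 732 in B cells with totals that leave out mitochondrial, ribosomal and hemoglobin UMIs. TMM scaling lowered the share of calls that were higher from 69.4% to 56.5% in fibroblasts and raised it from 63.4% to 77.3% in B cells, where the median of all tested genes moved to 0.16. The totals without those UMIs gave 74.8% over all cells (64.6% as reported) and 50.1% in B cells, with a median of all tested genes of −0.12. The log2 ratio of a gate's share of cells was −0.0938 in endothelium (−0.59 as reported), −0.57 in smooth muscle (−0.82) and 3.33 in B cells (2.79) under a looser cell filter. In smooth muscle it was −1.06 where cells with any UMI of another gate were dropped and −0.67 on thinned cells, and in fibroblasts the first of these turned 0.09 into −0.0486. Leaving out cells with Adipoq, Cidec, Plin1 or Prg4 UMIs was chosen after seeing the data. It turned the log2 ratio of C3 and C4b in endothelium to −0.00997 and −0.92. For Pdk4, Retn and Serpina3n in B cells it gave −0.44, −1.03 and −0.0825, which are lower bounds set by the floor, since 39, 26 and 50 preventive UMIs stood against 0 late UMIs, and no change of direction. A mean over cells turned Ccl5 in fibroblasts to −0.39, Sncg in B cells to −0.33 and Atp1b1, Slc6a2 and Syt1 in smooth muscle to 0.42, 1.27 and 1.34. Dropping cells with any UMI of another gate turned Ccl21a, Jchain, Slc6a2 and Syt1 in smooth muscle to 0.0382, −1.96, 2.87 and 2.21 and Mustn1 in B cells to 0.38. Asking for 1 more UMI turned Ccl5 in endothelium to 0.0642. Of 13713 single-gene values under the alternatives 10846 stayed within the counting interval, 2851 moved outside it with the same direction and 16 had another sign, these 3 bounds among them. Of the 10846, 1526 came from lifting the limit on CPM, which cannot change a ratio. Limits on genes relative to UMIs and on hemoglobin left 1524 of 1526 within it. Leaving out cells with Adipoq, Cidec, Plin1 or Prg4 UMIs left 824 of 1514 within it. Over all cells that was 88, while 265 moved. The causes were not tested. Depth limits the B cell gate most, where 3 UMIs of the late library equal 21.0 CPM.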

Other observations

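Insulin-like growth factor, clock and hypoxia genes also differed in some gates. Igfbp6, which binds insulin-like growth factor 2, was at 1552 CPM in the preventive and 3694 CPM in the late fibroblast gate, a ratio of 0.420 (0.412 to 0.428), and the AS library was at 1323 CPM. Igfbp3 was higher there, at 187 and 27.6 CPM. Igf1 was at 62.7 and 12.7 CPM in smooth muscle (ratio 4.92). Of the 8 tested genes of insulin-like growth factors and their binding proteins 1 was higher and 1 lower in fibroblasts, with a median log2 ratio of −0.14. Among all genes tested in fibroblasts 5.5% were higher and 2.43% lower. Vegfa, the growth factor of vessels, was at 146 and 39.5 CPM in fibroblasts (3.70) and 101 and 40.6 CPM in smooth muscle (2.48). Of 12 hypoxia genes tested in fibroblasts 3 were higher, Vegfa, Bnip3 and Ddit4, with a median log2 ratio of 0.47. Slc2a1, Aldoa and Eno1, of glucose uptake and glycolysis, were at 2.31 to 2.37 times the late level in B cells, on 6 to 20 late UMIs. The clock output gene Dbp was at 109 and 219 CPM in fibroblasts (0.498) and 149 and 279 CPM in smooth muscle (0.536), while its antagonist Nfil3 was at 140.1 and 57.6 CPM (2.43) and 133 and 51.8 CPM (2.57). Of the 7 clock genes tested in fibroblasts these were the only ones called. Without the cells that held adipocyte or Prg4 UMIs the log2 ratios of Igfbp6, Ddit4 and Dbp in fibroblasts were −0.89, 0.92 and −0.72, and that of Vegfa in smooth muscle was 0.46, all under 2-fold, while Igf1 was at 1.08 in smooth muscle and Vegfa at 1.25 in fibroblasts.

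Of the complement genes tested, 3 of 6 were higher in endothelium, 3 of 7 in smooth muscle and 2 of 3 in B cells, and 0 were lower. Among all tested genes 4.01%, 3.57% and 10.5% were higher in these gates. The 3 in endothelium were Cfd, C4b and C3. Leaving out the cells that held adipocyte or Prg4 UMIs, C3 and C4b were at log2 ratios of −0.00997 and −0.92 there, and Cfd at 5.34. In fibroblasts 2 of 13 complement genes were higher (Cfd and C7) and 2 lower (C1qa and C1qb), with a median log2 ratio of 0.23. Of all genes tested in fibroblasts 5.5% were higher and 2.43% lower. Adamts4, which cleaves the proteoglycan aggrecan, was at 54.4 and 9.7 CPM in smooth muscle (5.64, 3.71 to 8.92) and Timp1 at 110.5 and 28.6 CPM, where 156 of its 414 preventive UMIs lay in 1 cell. None of the tested MHC class I genes was called in endothelium, fibroblasts or smooth muscle. Xbp1, which drives the secretory response, was at 1.96 to 2.28 times the late level in the 4 gates, and it was the only gene called of 10 tested for the unfolded protein response in smooth muscle. Without the cells that held adipocyte or Prg4 UMIs its log2 ratio was 0.78 to 0.95 in these gates, under 2-fold.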
